A study of Mus musculus with 39 samples.

Results

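The Fc receptor and Fc receptor-like genes Fcmr, Fcrla, Fcrl1, Fcrl5, Fcer2a, Fcgr2b and Fcgr3 were followed by name across 39 lymphomas of Eµ-myc mice. Every probe set that the platform annotation assigns to 1 of these genes and to no other gene was taken. There were 14 such probe sets for 6 of the 7 genes, of 18194 genes in all, and Fcrl5 was not analysed here. Every tumour carries the transgene Eµ-myc, in which an immunoglobulin heavy chain enhancer, active in B lineage cells, drives Myc. The labels put all tumours in 1 group, numbered as a training set, and name no normal tissue, treatment, strain, sex or age. Total RNA of homogenized lymphoma tissue was measured on 1 array per tumour. Whether every tumour is from its own mouse is not stated, and a p-value here reflects only how much these samples vary. Levels are log2 values, so 1 unit is a 2-fold difference in signal, and the level of a gene is that of its probe set with the highest mean.

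Fc receptors bind the constant part of antibodies and tell a cell that antibody has met its target. On B cells the IgG receptor FcγRIIB carries an inhibitory tail and dampens the B cell receptor, while the IgM receptor (Fcmr) and the low-affinity IgE receptor CD23 (Fcer2a) appear as B cells mature. The Fc receptor-like genes share the immunoglobulin domains of these receptors: Fcrl1 and Fcrl5 encode surface proteins of B cells, and Fcrla an intracellular protein of B lineage cells. FcγRIII (Fcgr3) is an activating receptor of macrophages, neutrophils and natural killer cells that signals through the shared gamma chain, Fcer1g.

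The promoters of Fcmr and Fcrl1, a pair of genes whose levels moved together, and of Fcrla, which was far lower in 3 tumours than in the rest, are shown with motif matches in capitals. They are RefSeq sequences of the build GRCm38.p6, 5′ to 3′ on the strand of the gene, from 250 bases before to 50 bases after the start. The Fcmr window is chr1:130865527-130865826 on the plus strand, the Fcrl1 window chr3:87376137-87376436 on the plus strand and the Fcrla window chr1:170927534-170927833 on the minus strand.
Fcmr: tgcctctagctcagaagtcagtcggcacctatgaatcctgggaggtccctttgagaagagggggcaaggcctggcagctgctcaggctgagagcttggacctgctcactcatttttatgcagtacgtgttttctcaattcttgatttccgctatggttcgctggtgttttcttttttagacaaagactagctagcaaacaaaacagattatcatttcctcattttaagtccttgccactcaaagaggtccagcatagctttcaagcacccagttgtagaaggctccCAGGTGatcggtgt
Fcrl1: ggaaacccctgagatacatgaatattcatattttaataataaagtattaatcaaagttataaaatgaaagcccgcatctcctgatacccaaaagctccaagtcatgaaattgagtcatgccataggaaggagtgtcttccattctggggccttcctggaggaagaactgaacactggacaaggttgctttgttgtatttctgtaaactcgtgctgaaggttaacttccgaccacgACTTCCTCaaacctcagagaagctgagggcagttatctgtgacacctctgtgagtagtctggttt
Fcrla: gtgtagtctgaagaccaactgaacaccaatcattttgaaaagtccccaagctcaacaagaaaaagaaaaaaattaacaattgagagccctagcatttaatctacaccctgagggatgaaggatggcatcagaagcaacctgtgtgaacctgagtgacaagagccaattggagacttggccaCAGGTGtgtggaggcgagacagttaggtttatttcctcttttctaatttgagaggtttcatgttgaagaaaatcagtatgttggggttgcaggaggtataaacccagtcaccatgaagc
Capitals mark CAGGTG, an E-box of the kind bound by E2A, in Fcmr and Fcrla, and ACTTCCTC, the PU.1 motif GAGGAAGT read on the other strand, in Fcrl1. Of 32851 promoter windows, 20.2% held CAGGTG and 3.2% held GAGGAAGT on either strand. The 10 windows listed for the 7 genes held no octamer (ATGCAAAT, 1.74% of all windows), no Myc E-box (CACGTG, 7.15%) and no palindromic EBF1 motif (0.904%). Matches stood in 4 of the 10 windows, these 3 and 1 of Fcer2a with CAGGTG, and none overlapped. A match is a description of the letters only.

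The arrays had medians between 5.61 and 5.78, and pairs of arrays correlated with r between 0.889 and 0.991. Of the tumours, 7 stood apart by genes that are not Fc receptors. Tumours 5, 6, 8, 19, 23 and 26 had scores under -1 for 10 measured pan B cell genes (Cd79a, Pax5, Ebf1, Pou2af1 and others), from -3.06 in tumour 5 to -1.60 in tumour 26, where a score is the mean over genes of the log2 level minus the mean of the gene. The mean of these B cell markers was thus low in 6 tumours of a model known for B lineage lymphoma. Single markers differed, as Cd72 was lowest in tumour 5 (8.10) but highest in tumour 23 (12.76). Tumour 2 was set apart by a Myc level under 10, with 8.19 against 10.58 in the next lowest tumour. In tumours 6, 8 and 23 the score of 17 measured macrophage genes was 1.61, 1.02 and 1.28. The score of 5 plasmacytoid dendritic genes was highest in tumours 32 (4.14), 5 (3.11), 4 (1.36) and 19 (1.05). Tumours 2, 27 and 26 followed (0.98, 0.97 and 0.97), so this score was raised with and without a low pan B cell score. Results are given for all 39 tumours and for the 32 left without the 7 that stood apart.

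**Figure D1:**
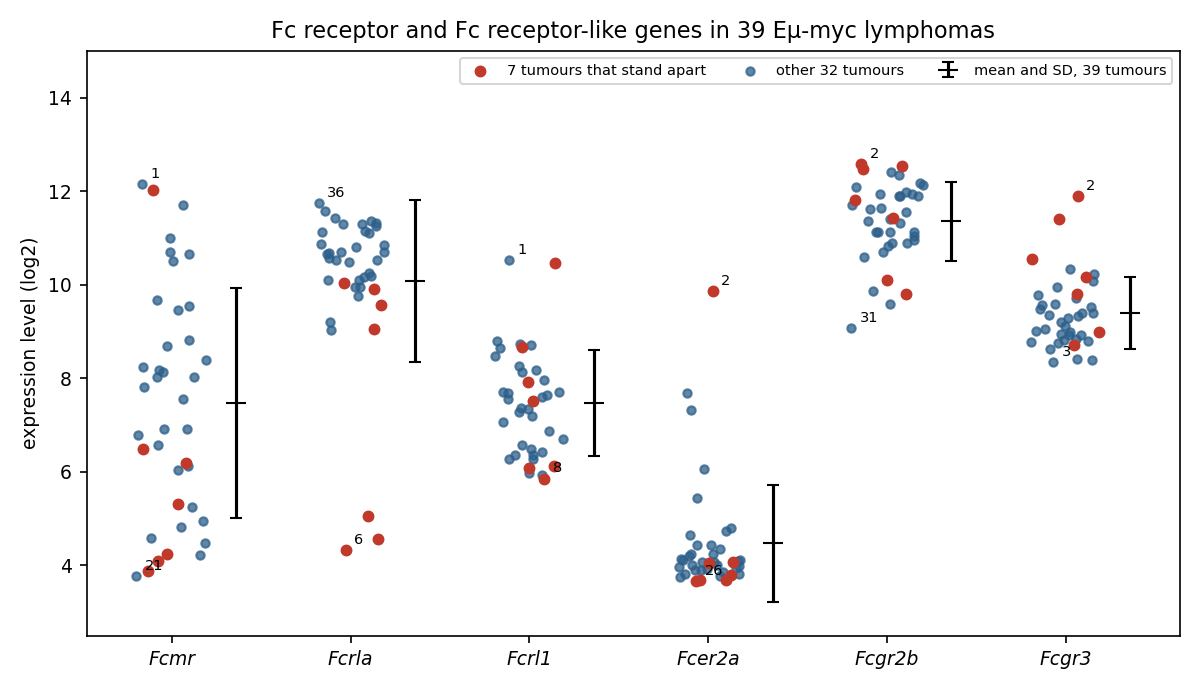
Log2 expression level (vertical axis) of the 6 measured genes in 39 tumours, with 1 point per tumour; red points are the 7 tumours that stand apart, blue points the other 32, bars the mean and SD, and numbers the tumours with the lowest and highest level. Fcmr spreads evenly from 3.77 to 12.14, Fcrla drops in 3 tumours, and Fcer2a leaves its low level in a few.

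Fcmr, the receptor for the Fc part of IgM, varied more than nearly every other gene. Its level was 3.77 in tumour 21, the lowest, 7.56 at the median and 12.14 in tumour 1, the highest. The mean was 7.46 ± 2.46 (log2, SD, n = 39), and only 0.159% of all genes had a larger SD, against a median SD of 0.32 over all genes. The levels formed no separate clusters (a mixture of 2 components gave a BIC gain of -4.29, where a gain over 10 was required) and ran from low to high with no gap as large as 1. Tumours 1, 2, 18 and 7 were at the top with 12.14, 12.03, 11.69 and 10.99. Tumours 8, 23 and 6, which had high macrophage scores, lay near the bottom with 3.89, 4.10 and 4.25, beside tumours 21 and 25 (4.23), whose pan B cell scores were 0.14 and 0.31. Tumours 2 and 1, at the top, also had high macrophage scores (1.59 and 0.84). Low Fcmr was therefore found with and without a low pan B cell score, and the SD was 2.30 in the 32 tumours. In bulk tissue, fewer cells of a type and less RNA per cell cannot be told apart.

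Fcrla, which encodes an intracellular Fc receptor-like protein that binds immunoglobulin in human B cells, showed the opposite shape. Tumours 6, 8 and 23 had levels of 4.32, 4.56 and 5.06. In the other 36 tumours it lay between 9.03 and 11.74, so that these 3 formed a separate cluster (BIC gain 43.8). The mean was 10.08 ± 1.73 over 39 tumours, and the SD was 0.66 in the 32 tumours, where 11.6% of genes had a larger one. Tumours 5, 19 and 26 had low pan B cell scores but Fcrla levels of 9.05, 10.03 and 9.56, within the range of the other lymphomas. Its 3 probe sets moved together, with a lowest r of 0.934.

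Fcrl1, a receptor-like protein of the B cell surface with activating motifs in its tail, varied less than both over all tumours. Without the tumours that stand apart its SD was 1.02, above the 0.66 of Fcrla but below the 2.30 of Fcmr. Over all tumours the level of Fcrl1 was 5.85 in tumour 8, 7.51 at the median and 10.52 in tumour 1, with a mean of 7.47 ± 1.14. Tumours 1 and 2 (10.46) stood 1.66 above the next tumour, tumour 12, and the remaining 37 showed no gap of that size. Its 2 probe sets correlated with r = 0.826.

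Fcer2a, the low-affinity IgE receptor CD23 of follicular B cells, was near its lowest level in most tumours. It lay between 3.66 and 4.80 in 34 tumours, with a median of 4.07 over all 39. The other 5 were higher, with 5.44 (tumour 32), 6.07 (tumour 18), 7.32 (tumour 12), 7.69 (tumour 27) and 9.86 (tumour 2). Tumours 2, 12 and 27 formed a separate high cluster (BIC gain 33.5), and the mean of 4.48 ± 1.25 describes neither cluster. The files used here give no detection calls, so a low level is not read as absence. Germinal centre gene scores were 5.01, 4.51, 0.99, 0.55 and 0.16 in tumours 18, 27, 12, 2 and 32, and T cell scores 0.91, 2.36, 0.18, 2.92 and 1.55 in the same order. Tumours 26 and 19, which held the lowest Fcer2a levels (3.66 and 3.68), had germinal centre scores of 1.16 and 1.07 and T cell scores of 1.30 and 1.11. The part of these cells in the level of Fcer2a was not tested.

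Fcgr2b, the inhibitory IgG receptor, varied less than the genes above over all tumours and was lowest in tumours of different kinds. Without the tumours that stand apart its SD was 0.78, above the 0.66 of Fcrla. The lowest Fcgr2b levels were 9.08 (tumour 31), 9.60 (tumour 3), 9.81 (tumour 8), 9.86 (tumour 20) and 10.10 (tumour 23), and its median was 11.44. The highest levels were those of tumours 2 (12.57), 19 (12.53) and 26 (12.47), and the mean over all 39 was 11.36 ± 0.85. Tumours 31, 3 and 20 had pan B cell scores of 0.58, 0.56 and 0.98. Tumours 8, 23, 19 and 26 had pan B cell scores under -1, so both ends held tumours with low scores. Of its 5 probe sets, 3 correlated with the chosen one at r of at least 0.98, while the last stayed between 2.29 and 2.79 in all tumours (r = 0.348). The chosen probe set has a suffix that the array design gives to probes shared with other transcripts.

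Fcgr3, the activating IgG receptor of myeloid and natural killer cells, had 1 probe set. It was 8.35 in tumour 3, 9.28 at the median, 11.41 in tumour 23 and 11.89 in tumour 2, with a mean of 9.40 ± 0.77. Tumours 2 and 23 stood above the rest, followed by tumours 8 (10.54), 1 (10.33) and 22 (10.23). The SD was 0.52 in the 32 tumours. With 1 array per tumour there is no error on a single value, so neighbours in these orders were not told apart.

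Which of these genes moved together was tested over 15 pairs by permutation (2-sided, 100000 draws each), with p-values adjusted by Benjamini-Hochberg. Where a gene formed separate clusters, the pair was computed in its larger cluster. Only 1 pair passed: Fcmr with Fcrl1, with r = 0.613 (p = 4e-05, adjusted p = 0.0006) and rho = 0.547 (p = 0.00024, adjusted p = 0.0036, n = 39). Without tumours 1 and 2, the farthest from the Fcmr median, r was 0.481 (adjusted p = 0.0418), and in the 32 tumours it was 0.608 (adjusted p = 0.0036). Leaving out any single tumour gave r between 0.558 and 0.662.

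**Figure D2:**
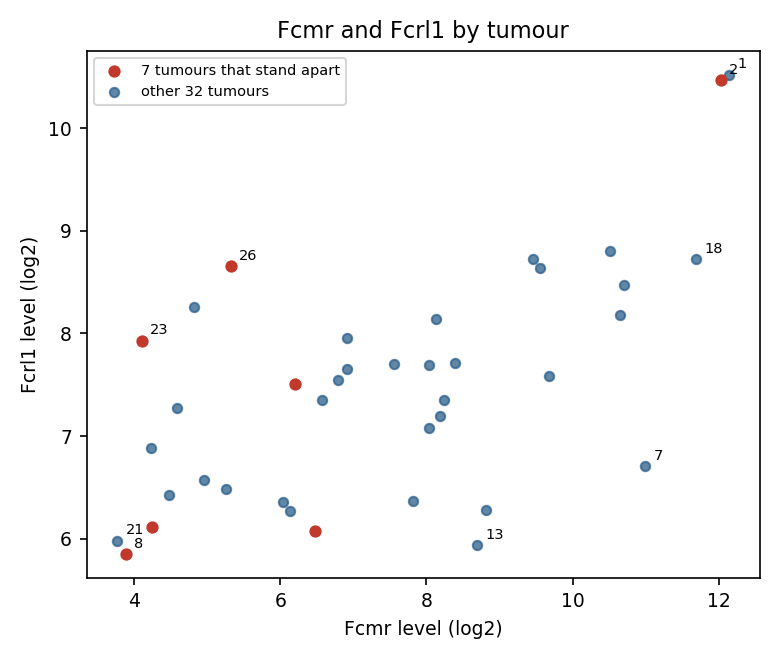
Fcrl1 level against Fcmr level (both log2), 1 point per tumour, with the 7 tumours that stand apart in red and the other 32 in blue. Tumours 1 and 2 lie at the top right, tumours 21 and 8 at the bottom left, and tumours 7 and 13 have Fcmr above its median with low Fcrl1.

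Fcmr with Fcer2a came next, with r = 0.431 (p = 0.00698, adjusted p = 0.0523) and rho = 0.347 (adjusted p = 0.118) in the 36 tumours of the low Fcer2a cluster. That relation leaned on tumour 18, without which r was 0.294. With the 3 high tumours included r was 0.549 (adjusted p = 0.000375, n = 39), and these held 12.03 (tumour 2), 10.70 (tumour 27) and 10.51 (tumour 12) of Fcmr. Fcrla with Fcgr3 gave r = -0.378 (permutation p = 0.0224, adjusted p = 0.0842) and rho = -0.352 (n = 36). In the 32 tumours r was -0.469 (adjusted p = 0.0487), while rho was -0.384 (adjusted p = 0.199). Fcrla with Fcrl1 gave r = -0.337 (adjusted p = 0.132) and with Fcmr r = -0.277 (adjusted p = 0.22). Given the pan B cell and macrophage scores, partial r passed for Fcrla with Fcgr2b (0.541, permutation adjusted p = 0.00675, against r = 0.0398 without them). It passed again for Fcmr with Fcrl1 (0.535, adjusted p = 0.00675). Partial rho passed for both (0.4955, adjusted p = 0.0192, and 0.543, adjusted p = 0.0078). Partial r also passed for Fcmr with Fcrla (-0.416, adjusted p = 0.0452, n = 36) and with Fcer2a (0.410, adjusted p = 0.0452, n = 36). For these 2 pairs partial rho did not pass (-0.375, adjusted p = 0.0765, and 0.266, adjusted p = 0.27). By rho alone, Fcrl1 with Fcgr2b passed (0.414, adjusted p = 0.0466).

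Fcgr2b, Fcgr4 and Fcgr3 follow each other on chromosome 1 with no other protein-coding gene of the GRCm38.p6 gene table between them. The levels of Fcgr2b and Fcgr3 nonetheless showed little relation, with r = 0.0602 (adjusted p = 0.792 over the 15 pairs) and rho = 0.0923 (n = 39). In 5 relations between neighbours, chosen after the values were seen, Fcgr3 rose with Fcgr4, an activating IgG receptor of myeloid cells (r = 0.740, p = 1e-05, the smallest the permutations can give, adjusted p = 5e-05, rho = 0.675). Without tumours 2 and 23 r was 0.712. Fcgr2b with Fcgr4 gave r = 0.0589 (adjusted p = 0.818, rho = 0.0781), and Fcgr2b with Fcrla r = 0.0398 (adjusted p = 0.818, rho = 0.0193, n = 36). Fcrl1 with Fcrls, which lies near it on chromosome 3, gave r = -0.253 (adjusted p = 0.341, rho = -0.236, n = 36). Relations of Fcmr with its neighbours on chromosome 1 were not tested. Over 39 tumours r was 0.327 with Pigr (rho = 0.447) and 0.0581 with Fcamr (rho = 0.0978).

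To read the genes against B cell maturity, every gene was fitted with limma on the score of 12 measured mature B cell genes (Ms4a1, Cr2, Cxcr5, Ccr7 and others, none of them an Fc receptor), as a slope in log2 per SD of the score (SD 1.02). Of 18182 genes 11.2% passed an adjusted p of 0.05, 4.49% with a rise and 6.74% with a fall. Of the 6 measured Fc receptor genes 4 rose and 0 fell. Fcmr rose by 1.94 ± 0.24 log2 per SD (SE, n = 39, limma adjusted p = 1.2e-06), Fcrla by 0.88 ± 0.24 (0.0123), Fcer2a by 0.84 ± 0.15 (0.000208) and Fcrl1 by 0.82 ± 0.13 (4.03e-05). Fcgr2b had a slope of 0.28 ± 0.13 (adjusted p = 0.159) and Fcgr3 of -0.00019 ± 0.12 (adjusted p = 0.999).

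Among the 32 tumours 12.7% of genes passed, 5.81% with a rise and 6.91% with a fall. There Fcmr (2.46 ± 0.39, limma adjusted p = 0.000103), Fcrl1 (1.11 ± 0.17, 7.81e-05) and Fcer2a (0.91 ± 0.17, 0.000851) rose again. Fcrla turned to -0.35 ± 0.15 (adjusted p = 0.144), and leaving out tumour 6, 8 or 23 alone already ended its call (adjusted p 0.0724, 0.0726 and 0.0811). The slope of Fcer2a was 0.57 without tumour 2 (adjusted p = 0.00237). Tumour 1 had a mature score of 1.68, close to the 1.69 of tumour 27, but its Fcer2a level was 4.10.

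**Figure D3:**
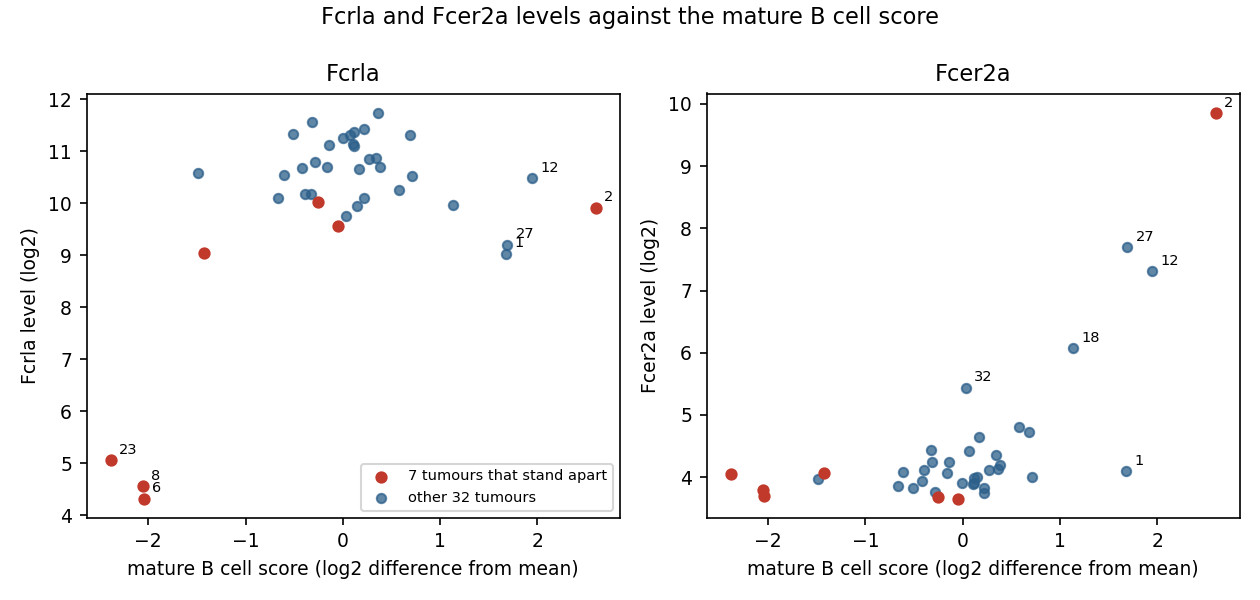
Levels of Fcrla (left) and Fcer2a (right), log2, against the mature B cell score, with 1 point per tumour, the 7 tumours that stand apart in red and the other 32 in blue. Tumours 6, 8 and 23 alone hold low Fcrla, and Fcer2a leaves its low level in tumours 2, 27, 12, 18 and 32.

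Along the score of 11 precursor B cell genes (Rag1, Rag2, Dntt, Il7r and others, SD 0.89) none of the 6 genes passed, against 3.43% of 18183 genes (1.66% with a rise and 1.77% with a fall). At an unadjusted p under 0.05 there were 3 of them, against 22.3% of all genes: Fcgr3 (-0.32 ± 0.11, p = 0.00706, limma adjusted p = 0.0887), Fcgr2b (-0.32 ± 0.13, p = 0.0149, adjusted p = 0.124) and Fcrla (0.63 ± 0.26, p = 0.0182, adjusted p = 0.136). Fcmr had a slope of -0.13 ± 0.39, although it rose with mature genes. Among the 32 tumours its slope was -0.87 ± 0.40 (adjusted p = 0.54), that of Fcgr2b -0.41 ± 0.13 (adjusted p = 0.231) and that of Fcrla -0.07 ± 0.12 (adjusted p = 0.94), where 0.159% of genes passed (0.0825% with a rise and 0.077% with a fall) and none of the 6 did.

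Fcgr3 followed macrophage genes. Along the macrophage score (SD 0.62, from -0.89 in tumour 3 to 1.61 in tumour 6) it rose by 0.67 ± 0.06 log2 per SD (SE, n = 39, limma adjusted p = 1.82e-10). Fcrla fell by 1.20 ± 0.20 (adjusted p = 6.29e-06). The background was high, with 36.7% of 18177 genes passing, 18.2% with a rise and 18.5% with a fall, so a count of 1 of 6 up and 1 of 6 down is close to that of all genes. Without the tumours that stand apart 5.68% passed, 3.08% with a rise and 2.6% with a fall. Fcgr3 then rose by 0.63 ± 0.08 (adjusted p = 5.27e-05) and the slope of Fcrla was -0.42 ± 0.16 (adjusted p = 0.1). With the pan B cell score as a covariate, over all 39 tumours, 26.3% of genes passed. Fcgr3 then rose by 0.73 ± 0.07 and Fcrla fell by 0.73 ± 0.17 (limma adjusted p = 0.0013). Fcrl1 (0.58 ± 0.19, 0.0173) and Fcer2a (0.58 ± 0.21, 0.0358) also rose. That fit was not run without single tumours.

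Fcgr2b did not pass along the macrophage score (0.11 ± 0.13, limma adjusted p = 0.565, and 0.37 ± 0.19, adjusted p = 0.25, in the 32 tumours). Fcmr (0.15 ± 0.39, adjusted p = 0.807), Fcer2a (0.36 ± 0.19, 0.14) and Fcrl1 (0.34 ± 0.17, 0.129) did not pass either. Single tumours moved these: Fcer2a was at -0.02 without tumour 2, and Fcrl1 passed without tumour 6 (0.53, adjusted p = 0.0211) or tumour 8 (0.44, 0.0424). The score of 7 natural killer and cytotoxic genes, cells that also carry Fcgr3, was 2.72, 0.46 and 0.91 in tumours 2, 23 and 8. It was also high in tumours 27 (2.09), 18 (1.53) and 1 (1.06), where Fcgr3 was 9.57, 10.08 and 10.33, and its part was not tested.

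**Figure D4:**
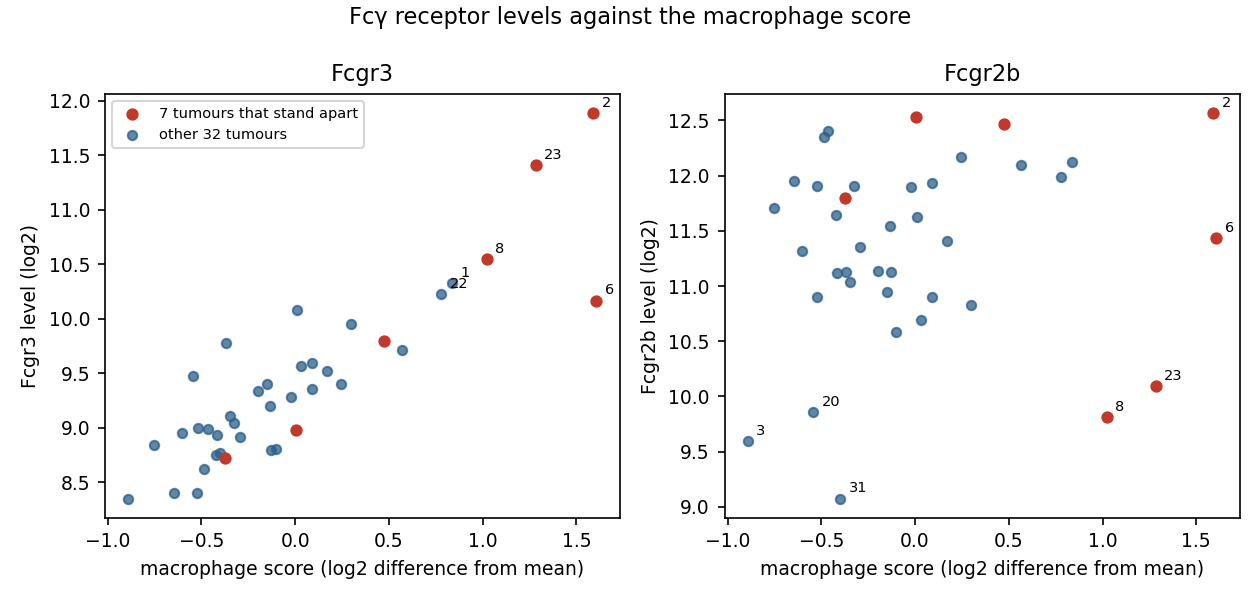
Levels of Fcgr3 (left) and Fcgr2b (right), log2, against the macrophage score, with 1 point per tumour, the 7 tumours that stand apart in red and the other 32 in blue. Fcgr3 climbs with the score up to 11.89 in tumour 2, whereas Fcgr2b is scattered, with tumours 8 and 23 low and tumour 2 high at scores above 1.

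Along the Myc level (SD 0.77) Fcrla rose by 0.89 ± 0.24 log2 per SD (SE, n = 39, limma adjusted p = 0.0027), with 36% of 18193 genes passing, 18.7% with a rise and 17.2% with a fall. Fcer2a fell by 0.83 ± 0.15 (adjusted p = 2.14e-05), Fcgr3 by 0.56 ± 0.08 (9.88e-07) and Fcrl1 by 0.45 ± 0.17 (0.0325). Fcmr had a slope of -0.63 ± 0.38 (adjusted p = 0.202) and Fcgr2b of -0.02 ± 0.13 (adjusted p = 0.929). Of the 6 genes 1 rose and 3 fell. Tumour 2, which had the lowest Myc, decided several of these. Without it Fcer2a was at -0.38 (adjusted p = 0.174), Fcrl1 at -0.18 (0.645) and Fcmr at -0.16 (0.873), while Fcgr3 was at -0.59 (0.000466) and Fcrla at 2.00 (1.04e-06). Fcrl1 also lost its call without tumour 18 (-0.42, adjusted p = 0.0513).

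Without all 7 tumours 12.1% of genes passed along Myc, 5.42% with a rise and 6.65% with a fall, and Fcrla rose by 0.77 ± 0.15 (adjusted p = 0.00109). Fcer2a fell by 0.91 ± 0.25 (adjusted p = 0.0137) and Fcmr fell by 1.92 ± 0.63 (adjusted p = 0.0415). Fcrl1 (-0.63 ± 0.30, adjusted p = 0.185) and Fcgr3 (-0.33 ± 0.15, adjusted p = 0.165) did not pass. With the pan B cell and macrophage scores as covariates, where 17.3% of genes passed, the slope of Fcrla was 0.19 ± 0.19 (adjusted p = 0.577), whereas Fcer2a fell by 1.01 ± 0.17 (adjusted p = 5.69e-05) and Fcgr3 by 0.22 ± 0.07 (adjusted p = 0.0172).

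**Figure D5:**
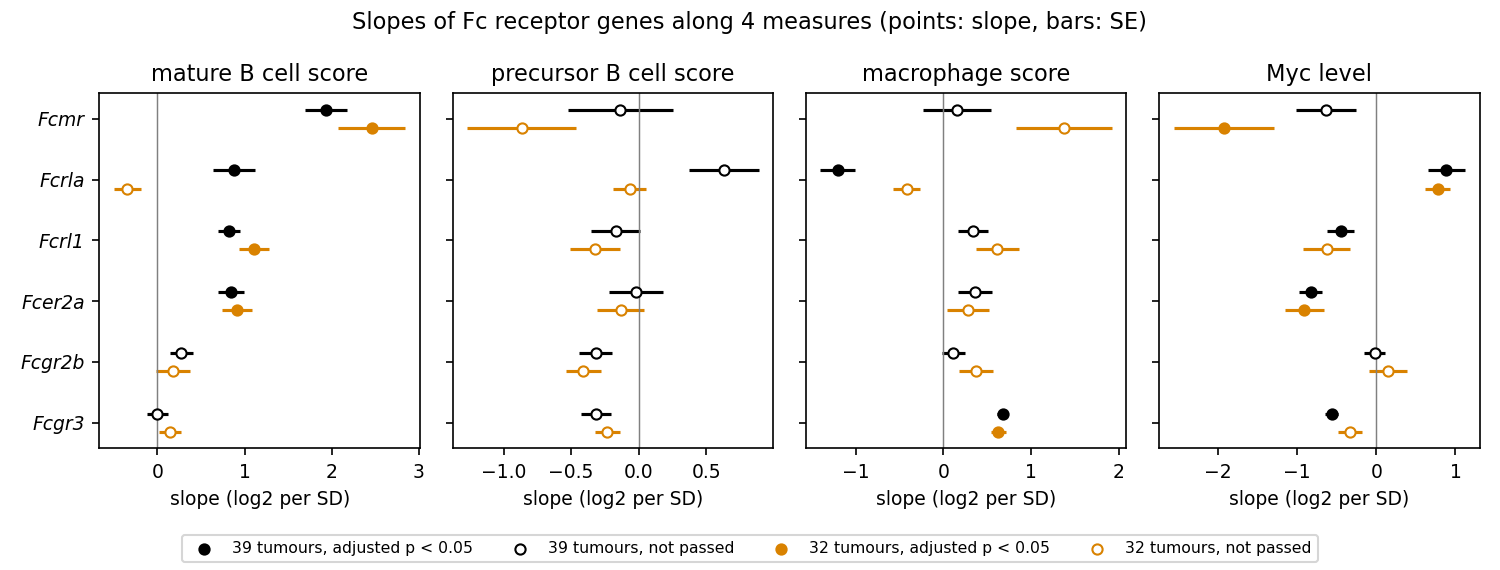
Slopes (points, log2 per SD) with SE (bars) of the 6 genes along the mature B cell, precursor B cell and macrophage scores and the Myc level, in 39 tumours (black) and in the 32 left without those that stand apart (orange); filled points passed an adjusted p of 0.05. Fcmr, Fcrl1 and Fcer2a are filled in both colours along the mature score, Fcgr3 along the macrophage score, and Fcrla and Fcer2a along Myc.

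The other Fc receptors held mostly receptors of myeloid cells, and 10 of 12 listed were measured. Along the macrophage score, where 18.2% of all genes rose, 5 of 10 rose and 0 fell, with a median slope of 0.30 against -0.01 over all genes. Fcgr4 rose by 1.35 ± 0.13 log2 per SD (limma adjusted p = 1.56e-09), the gamma chain Fcer1g by 0.93 ± 0.10 (1.17e-08) and the high-affinity IgG receptor Fcgr1 by 0.80 ± 0.08 (3.52e-09). Fcrls, a member of the Fc receptor-like family with a scavenger receptor domain, rose by 0.58 ± 0.15 (0.00154), and Fcgrt, the neonatal Fc receptor that recycles IgG, rose by 0.48 ± 0.10 (0.000264). Without the tumours that stand apart 3 of 10 rose, against 3.08% of all genes: Fcgr4 (1.05 ± 0.20, adjusted p = 0.00226), Fcgr1 and Fcer1g. Fcgr4 ran from 4.77 in tumour 31 to 12.26 in tumour 8. Along the mature B cell score, where 6.74% of all genes fell, 0 of 10 rose and Fcrls fell by 0.70 ± 0.13 (adjusted p = 0.000511). Its level was 9.76 in tumour 23 and 5.04 at the median, and tumours 6, 8 and 23 formed a separate high cluster. Among the 32 tumours 0 of 10 passed along the mature score. Along the precursor score, where 1.77% of all genes fell, 0 rose and 2 fell, Fcgr4 by 0.95 ± 0.20 (limma adjusted p = 0.0112) and Fcer1g by 0.54 ± 0.16 (0.0475). Along Myc, where 18.7% of all genes rose and 17.2% fell, 0 rose and 4 fell. Fcgr4 fell by 1.01 ± 0.20 (adjusted p = 6.18e-05), Fcer1g by 0.77 ± 0.13 (1.43e-05), Fcgr1 by 0.48 ± 0.13 (0.00329) and Trim21, a cytosolic antibody receptor, by 0.28 ± 0.05 (4.22e-05). In both fits 0 of 10 passed among the 32 tumours.

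Of the inhibitory arm of Fc receptor signalling, 8 of 9 genes were measured. Inpp5d, the phosphatase SHIP1 that FcγRIIB recruits, varied little (10.52 ± 0.24, from 10.02 to 11.08) and passed in none of the 4 fits. Along the mature score, where 4.49% of all genes rose, 1 of 8 rose and 0 fell, the B cell inhibitory receptor Cd22 (1.07 ± 0.14, limma adjusted p = 4.42e-06). Along the macrophage score, where 18.2% of all genes rose and 18.5% fell, 3 of 8 rose (Ptpn6, the phosphatase SHP-1, by 0.45 ± 0.09, and the adaptors Dok1 and Dok2) and Cd22 fell by 0.51 ± 0.21 (adjusted p = 0.0488). In the 32 tumours Ptpn6 (0.48 ± 0.10, adjusted p = 0.00186) and Cd22 (0.60 ± 0.15, adjusted p = 0.00631) rose along the mature score, against 5.81% of all genes, and 0 of 8 passed along the macrophage score. Along Myc 0 rose and 3 fell (Ptpn6, Dok1 and Dok2, against 17.2% of all genes), and along the precursor score 0 rose and 1 fell (Ptpn6, against 1.77%). Among the 32 tumours only Dok1 of these passed along Myc (-0.24 ± 0.08, adjusted p = 0.049), while Ptpn6 (0.545) and Dok2 (0.452) did not, and Ptpn6 did not pass along the precursor score (0.352).

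Of the activating arm 7 of 8 genes were measured. Along the macrophage score 3 of 7 rose, against 18.2% of all genes, and 0 fell: Lcp2, the adaptor SLP-76, by 0.91 ± 0.13 (limma adjusted p = 4.22e-07), the adaptor Lat2 by 0.65 ± 0.18 (0.00391) and Vav1, an exchange factor, by 0.36 ± 0.07 (0.000174). Along the mature score, where 4.49% of all genes rose and 6.74% fell, Fgr rose by 0.46 ± 0.16 (adjusted p = 0.0474) and Vav1 fell by 0.32 ± 0.08 (0.00579). Along Myc 0 rose and 2 fell (Lcp2 and Fgr, against 17.2% of all genes), and along the precursor score 0 rose and 1 fell (Lat2, against 1.77%). Among the 32 tumours Lcp2 fell along Myc (-0.93 ± 0.17, adjusted p = 0.000387), while Fgr (0.0809) and, along the precursor score, Lat2 (0.234) did not pass. There 1 of 7 rose along the macrophage score, the kinase Fgr (0.68 ± 0.21, adjusted p = 0.0458, against 3.08% of all genes), and 1 along the mature score, Lat2 (1.14 ± 0.24, 0.00205, against 5.81%). The mature slopes of Fgr (0.51 ± 0.21, limma adjusted p = 0.118) and Vav1 (0.04 ± 0.06, 0.726) did not pass in the 32 tumours, and that of Vav1 had changed sign. The kinase Syk averaged 10.57 ± 0.57 and passed in none of the 4 fits. Of the partners and ligand chains 4 of 7 were measured. Cr2, the complement receptor CD21 that binds CD23 in humans, fell by 0.81 ± 0.22 along Myc (adjusted p = 0.0038) and ran from 3.72 to 10.22 in tumour 27, one of the tumours with high Fcer2a. It was the only partner that passed in any of the 4 fits over 39 tumours. Adam10, the protease that sheds CD23, averaged 10.92 ± 0.23.

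The genes most like each receptor were ranked by Pearson's r over the tumours as a description. Fcmr was most like Bcar3, a signalling adaptor (r = 0.812, n = 39), H2-DMb2, which loads peptides on MHC class II (0.791), the transcription factor Foxo1 (0.772), Cxcr5, a receptor that guides B cells to follicles (0.770), and Gem, a small GTPase (0.763), each at 0.696 or more in the 32 tumours. Fcrl1 was most like H2-Oa, another gene of MHC class II peptide loading (0.764), Txndc16 (0.762), the chemokine gene Cxcl16 (0.726), the cannabinoid receptor gene Cnr2 (0.716) and the cation channel gene Trpm2 (0.711). Cxcr5 is itself in the mature B cell score, and C1qb, C1qc and Csf1r are in the macrophage score. Fcgr3 was most like Tlr13, an endosomal receptor for bacterial RNA (0.905), the complement genes C1qb (0.891) and C1qc (0.868), Ms4a6d (0.868) and Csf1r, the receptor for a macrophage growth factor (0.864). Among the genes so ranked Fcgr2b had none above 0.70: Cyb561a3 (0.699), Ece1 (0.664), Clic4 (0.622), Napsa (0.622) and Inpp5f (0.607) led.

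For Fcrla the r over all tumours rests on tumours 6, 8 and 23, so the ranking is given in the 32 tumours, where Dusp28 (0.785), Pomt1 (0.765), Eef1aknmt (0.758), Plekhf2 (0.756) and Dgkd (0.755) led. For Fcer2a it rests on tumours 2, 12 and 27. The genes that led by r over all tumours were Il27ra (rho = 0.540), the kinase gene Txk (rho = 0.685), Tnfrsf4, the costimulatory receptor OX40 (rho = 0.489), Sidt1 (rho = 0.668) and Syt13 (rho = 0.466). The 32 tumours still held tumours 12 and 27. There Rgs13, a gene of the germinal centre score, led with r = 0.880, against 0.388 over all 39. Serpinb1b (0.854), Il27ra (0.831), Cacna1s (0.813) and Spin2c (0.813) followed.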

How the data were processed

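The authors deposited log2 expression levels per probe set, for which the submitters' processing notes name RMA and affy. Versions, filters and how many arrays were normalized together were not given in the sources used here. RMA corrects background and quantile normalizes, so dim genes are compressed and a change in total RNA cannot be seen. Of 45101 probe sets 34958 named 1 gene, 932 several and 9211 none here; 34754 of the first matched the GRCm38.p6 gene table by Entrez identifier, and 0 symbols changed. Each of 18194 genes was represented by its probe set with the highest mean. Fcrl5 was not analysed here, so 15 of 21 planned pairs were computed.

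Clusters were called where an equal-variance mixture of 2 components (mclust 6.1.1) raised BIC by more than 10 and its smaller cluster held 3 tumours or more. Fits used limma 3.58.1 (lmFit, eBayes with trend, R 4.3.3), 2-sided with Benjamini-Hochberg adjustment over all genes tested; no gene was tested against a score that contains it, and slopes are scaled by the SD over 39 tumours. The fits were run on simulated data with planted slopes and independent noise for each gene. That noise was not correlated between genes and held no outlying tumours, so it checks the code and not the calls made here. Permutation tests used numpy 2.4.6. Named genes are the members, up to 4 of the called genes with the largest slopes of each list and fit, and the 5 most like each member. These 5 leave out Riken clones, predicted genes and unnamed transcripts. Inpp5d, Syk, Adam10 and Fcgrt in the macrophage fit were chosen after their values were seen. The genes and lists were chosen with earlier results of these data known. Alternatives were the mean of all probe sets, the 32 tumours, covariates, a filter on dim genes, no trend, and each tumour left out. The labels name no batch. The number of arrays limits the precision.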

Additional observations from a re-analysis of the deposited data

How the results depend on the processing

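No paired analysis was possible because the labels put all tumours in 1 group. Of single-gene and pair results under the alternatives other than leaving out 1 tumour, 156 kept their direction and side of the threshold, 18 reversed, 11 newly passed and 6 no longer passed. Where they changed, the cause was not tested. Many of these results could hardly change, so the counts do not measure robustness. Fits with no trend or with the filter on dim genes leave every slope as it was. Fcmr and Fcgr3, with 1 probe set each, keep their levels under the mean of all probe sets. Pairs of genes without separate clusters are the same with no restriction to clusters.

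Without the 7 tumours that stand apart, genes along the precursor score numbered 15 higher and 14 lower (302 and 321 with all tumours), along the macrophage score 560 and 472 (3301 and 3371) and along Myc 986 and 1209 (3411 and 3138). Of the Fc receptor genes 0 then fell along the macrophage score, against 1. Slopes that reversed were those of Fcrla (-0.35) and Fcgr3 (0.14) along the mature score, Fcrla (-0.066) along the precursor score and Fcgr2b (0.15) along Myc. With the pan B cell and macrophage scores as covariates, precursor genes numbered 8 higher and 4 lower and Myc genes 1734 and 1407. With these covariates 3 of the 6 Fc receptor genes rose along the macrophage score (1 without them), beside 2235 of all 18177 genes. Along Myc 0 of the 6 rose (1 without them), beside 1734 of all 18193 genes. The precursor slopes of Fcrla (-0.25) and Fcer2a (0.10) and the Myc slope of Fcgr2b (0.089) reversed. Tests limited to genes above the median level, which leave out Fcer2a, called 528 higher and 763 lower along the mature score (817 and 1226 over all genes), 489 higher along the precursor score, 2065 higher along the macrophage score and 1976 lower along Myc. With the mean of all probe sets precursor genes numbered 88 and 70, the mean of Fcgr2b was 8.96 and Fcrla with Fcgr2b gave r = -0.0228.

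Of the 15 pairs 1 passed. With no restriction to clusters 4 passed, without the 7 tumours 2, with the mean of all probe sets 2 and as partial r 4. With no restriction r reversed for Fcmr with Fcrla (0.270), Fcrla with Fcrl1 (0.0821) and Fcer2a (0.0163), and Fcer2a with Fcgr2b (0.139) and Fcgr3 (0.378). Partial r reversed for Fcgr3 with Fcmr (-0.171), Fcer2a (0.0457) and Fcgr2b (-0.139), and r without the 2 farthest tumours for Fcgr3 with Fcmr (-0.241) and Fcgr2b (-0.100).

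The r of each pair without each tumour was an alternative chosen after seeing the data. Leaving out each tumour in turn gave 688 to 932 genes higher and 771 to 1692 lower along the mature score, with 771 without tumour 6 and 1692 without tumour 2, and 88 to 601 higher and 79 to 672 lower along the precursor score. Fc receptor genes that rose along the macrophage score numbered 1 to 2 of 6, beside 2671 to 3397 of all genes. Fc receptor genes that fell along Myc numbered 1 to 3 of 6, beside 2825 to 3195 of all genes. Slopes whose sign turned ranged from -0.21 to 0.15 (Fcgr3, mature), -0.26 to 0.068 (Fcmr) and -0.057 to 0.029 (Fcer2a, precursor), -0.20 to 0.46 (Fcmr) and -0.015 to 0.51 (Fcer2a, macrophage), and -0.087 to 0.30 (Fcgr2b, Myc). The files used here give no detection calls, so signal near background, as for Fcer2a in most tumours, limits what can be read.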
